A study of Schizosaccharomyces pombe with 2 samples.

Results

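The genes described here encode the condensin complex (*cut3*, *cut14*, *cnd1*, *cnd2* and *cnd3*), the core of the Smc5-Smc6 complex (*smc5* and *smc6*) and the DNA topoisomerases Top1, Top2 and Top3 (*top1*, *top2* and *top3*) of the fission yeast *S. pombe*. They were chosen by name, as the probe sets whose platform gene symbol is exactly 1 of these 10 symbols, a rule that uses no measured value. All 10 genes had a probe set, 1 each, out of 2899 genes to which a probe set with a signal could be assigned. Probe sets with a signal that were not assigned to exactly 1 gene do not enter the shares and percentiles of all genes tested. Gene expression had been profiled on GeneChip Yeast Genome 2.0 arrays, with 1 array for wt cells (strain JK107) and 1 array for cells of strain JP2247, in which *sgo2* is deleted (*sgo2*Δ). Both strains are of the *h*- mating type and were grown exponentially and without synchronization in YES, a rich liquid medium, at 32 °C, and 0.3 μg of poly(A) RNA was labelled from each. Each genotype is therefore represented by 1 strain and 1 culture, so that no difference below could be checked in a replicate or tested, and precision is limited by the single array per strain. Effects of the deletion and any further difference between these cultures or strains cannot be told apart. Since the cultures were asynchronous, a change in the share of cells at a stage of the cell cycle and a change in RNA per cell cannot be told apart either.

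SMC proteins are long ATPases that fold back on themselves at a hinge and work as heterodimers closed into a ring by further subunits. Condensin uses the pair Cut3 and Cut14 to compact chromosomes, above all in mitosis, when mutants of its subunits or of Top2 fail to separate their chromosomes. The Smc5-Smc6 pair acts in DNA repair and at stalled replication forks, and topoisomerases cut and rejoin DNA to release the supercoils and links that replication, transcription and recombination leave behind. Sgo2 is a shugoshin, which helps chromosomes attach to the spindle at centromeres and, in interphase, gathers at the subtelomeres, where cells form condensed chromatin bodies called knobs. The comparison of *sgo2*Δ with wt asks here whether the messenger RNAs of the other main machines that shape chromosomes differ in cells that lack Sgo2.

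Signals are intensities scaled by the authors, and a gene was tested if the brighter of its 2 signals reached 100. All 10 members lay above 100 on both arrays, with signals from 129.3 (*top3*) to 1193 (*cut14*) in wt cells and from 150.5 (*top3*) to 1404 (*cut14*) in *sgo2*Δ cells. Signals of different genes come from different probes, so levels were compared only between the arrays and not between genes. None of the members carried a probe set with the suffix that marks probes shared by several transcripts. The 5 *S. cerevisiae* probe sets of the same names in capitals (*TOP1*, *TOP2*, *TOP3*, *SMC5* and *SMC6*), which the authors had masked, were listed at 0 on both arrays. The deleted gene itself checked the labels, with signals of 581.5 (wt) and 2.81 (*sgo2*Δ). Set against the floor of 100, that is a fall of at least 5.82-fold.

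None of the 10 members differed 2-fold between the strains in either direction. Of the 2796 genes tested, 0.536% were at least 2-fold higher and 0.0358% at least 2-fold lower in *sgo2*Δ cells. The latter share is 1 gene, the deleted *sgo2* itself. At a smaller threshold, a signal at least 25% higher or at least 20% lower in *sgo2*Δ, 1 member, *cut3*, passed on the higher side and 0 on the lower, beside 6.51% and 0.572% of all genes tested. *cut3* no longer passed once the arrays were centred on all genes or on control RNAs or quantile normalized, nor with a pseudocount of 100. Taken by sign alone, the log2 ratio (*sgo2*Δ over wt) was above 0 for 9 members and below 0 for 1, *smc6*, but 84.7% of all genes tested also lay above 0, and all 10 members lay below 0 when the arrays were set by their poly(A) controls. The median log2 ratio of the members was 0.19, against 0.13 over all genes tested, and 8 of the 10 lay above that median, as 50% of all genes tested do by construction. With quantile normalization that count was 6, and with a pseudocount of 100, or a floor of 200, which leaves out *top3*, it was 7. Their log2 ratios ran from -0.073 to 0.35, a range that held 88.3% of all genes tested.

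**Figure D1:**
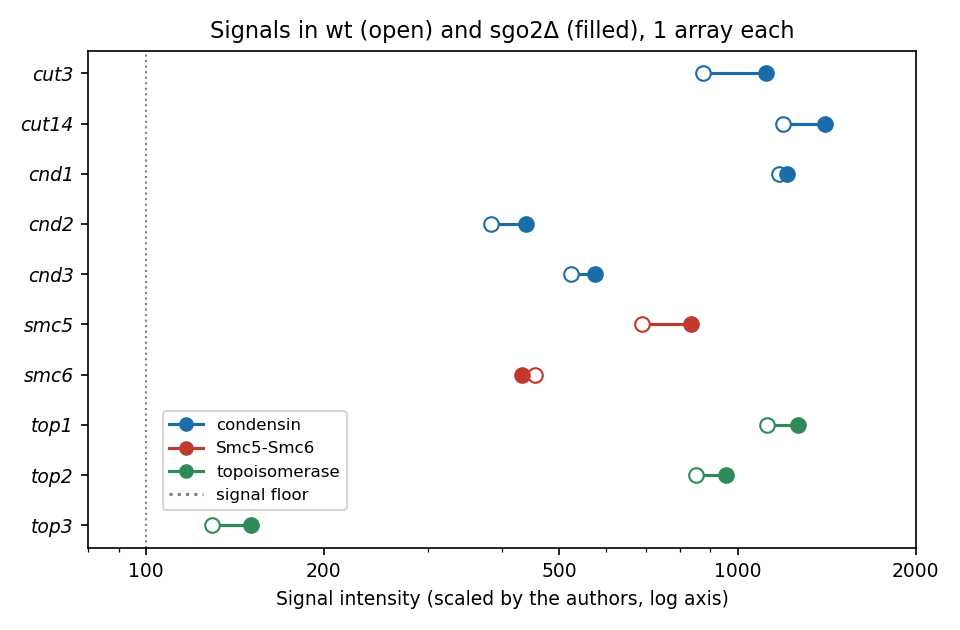
Signal intensity (log axis, scaled by the authors) of each member gene in wt (open circles) and *sgo2*Δ (filled circles), 1 array each, with colours for the 3 classes of genes and a dotted line at the signal floor of 100. As deposited, the filled circle lies to the right of the open one for 9 genes and to the left for *smc6*, and the longest steps are those of *cut3*, *smc5* and *cut14*.

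Among the condensin genes, *cut3*, which encodes the SMC4-type ATPase, had the largest log2 ratio of all members. The array gave it signals of 873.2 (wt) and 1116 (*sgo2*Δ), 1.28-fold higher in the mutant. This log2 ratio of 0.35 exceeded those of 95.3% of all genes tested, and it lay above the range of -0.19 to 0.32 that held the middle 95% of the 200 genes nearest to it in mean signal. *cut14*, the gene of the SMC2-type ATPase that pairs with Cut3, gave signals of 1193 (wt) and 1404 (*sgo2*Δ), 1.18-fold higher (log2 ratio 0.24). Both ATPase genes thus stood on the higher side of the genes tested, although *cut14* lay within the corresponding range of genes of like signal (-0.12 to 0.36).

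The 3 remaining condensin subunits contain no ATPase. *cnd2*, which encodes the kleisin that closes the ring, gave signals of 383.8 (wt) and 439.7 (*sgo2*Δ), a log2 ratio of 0.20. *cnd3*, one of the genes for the subunits built of HEAT repeats, gave signals of 523.4 (wt) and 574.8 (*sgo2*Δ), a log2 ratio of 0.14. *cnd1*, the gene of the other HEAT-repeat subunit, had nearly equal signals of 1174 (wt) and 1212 (*sgo2*Δ), a log2 ratio of 0.046, and 25% of all genes tested had a lower log2 ratio. The median log2 ratio was 0.29 for the 2 ATPase genes and 0.14 for the 3 others, a split made after the values were seen. The order of the ratios within condensin rests on 1 probe set per gene and 1 array per strain, and the median of all 5 was 0.20.

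Of the Smc5-Smc6 core, *smc5* had a higher and *smc6* a slightly lower signal in *sgo2*Δ cells, neither passed the smaller threshold, and both lay below 0 with the poly(A) controls as the reference. *smc5* gave signals of 688.5 (wt) and 833.9 (*sgo2*Δ), 1.21-fold higher (log2 ratio 0.28, above 88.4% of all genes tested). *smc6* gave signals of 454.0 (wt) and 431.7 (*sgo2*Δ), or 0.95 of the wt level (log2 ratio -0.073), and 7.05% of all genes tested had a lower log2 ratio. Both lay within the range of the 200 genes nearest in mean signal, which was -0.17 to 0.38 for *smc5* and -0.19 to 0.48 for *smc6*.

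The log2 ratio of *smc5* exceeded that of *smc6* by 0.35, whereas that of *cut3* exceeded that of *cut14* by 0.12. Such a difference within a pair does not depend on the scaling of the arrays as long as every gene is shifted alike. The pair of SMC ATPases of cohesin, the ring that holds sister chromatids together, was set beside them. *psm3* (SMC3-type) had signals of 538.1 (wt) and 752.9 (*sgo2*Δ), a log2 ratio of 0.48, and *psm1* (SMC1-type) had signals of 396.4 and 357.8 (-0.15). The difference was 0.63. The difference was thus wider in the cohesin pair than between *smc5* and *smc6*, and the log2 ratios of *psm3* and *psm1* exceeded those of 98.5% and 3.47% of all genes tested. *rad50*, the gene of a further SMC-like ATPase that acts in repair of DNA breaks, had signals of 356.3 and 370.8 (0.057). The differences within pairs were computed after the values were seen.

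The topoisomerase genes were the most alike of the 3 classes, with log2 ratios between 0.17 and 0.22. *top1*, which encodes the enzyme that cuts 1 DNA strand to relax supercoils, gave signals of 1123 (wt) and 1267 (*sgo2*Δ), a log2 ratio of 0.17. *top2*, the gene of the essential enzyme that passes one double helix through another and works beside condensin in mitosis, had signals of 849.4 and 956.9 (0.17). *top3*, whose product resolves recombination intermediates together with a RecQ helicase, had signals of 129.3 and 150.5 (0.22). As deposited, all 3 stood slightly above the median of all genes tested, between percentiles 63.0 and 76.0, but with quantile normalization *top3* lay below it (-0.11, against a median of -0.020). The ratio of *top3* is the least precise of the members, since it was the dimmest probe set and the 200 genes nearest to it in mean signal spread from -0.37 to 1.16 over their middle 95%.

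**Figure D2:**
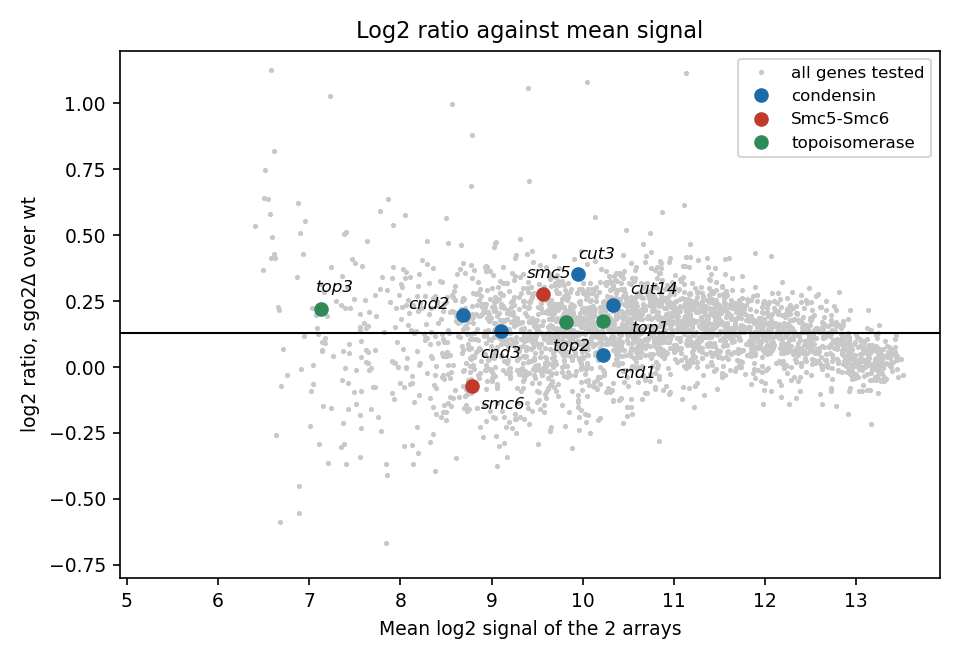
Log2 ratio of *sgo2*Δ over wt against the mean log2 signal of the 2 arrays, for all 2796 genes tested (grey points) and the 10 members (coloured by class). The black line is the median of all genes tested (0.13), and 11 genes beyond the vertical axis are not drawn. The members lie within the cloud of genes of like signal, with *cut3* at its upper edge and *smc6* towards the lower one, and the cloud widens towards dim signals, where *top3* lies.

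Genes that work with these proteins were described in the same way. The list held 18 genes in 4 groups, all of which had a probe set and reached a signal of 100. Of these, 0 differed 2-fold, 3 were at least 25% higher and 0 were at least 20% lower, beside 6.51% and 0.572% of all genes tested, and their median log2 ratio was 0.16. The 3 were *nse2*, *rec12* and *psm3*, of which *psm3* alone still passed after centring on all genes (log2 ratio 0.36) and none with the poly(A) controls as the reference.

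Of the condensin partners, *cti1*, whose product binds Cut3, gave signals of 1396 (wt) and 1603 (*sgo2*Δ), a log2 ratio of 0.20. The monopolin genes *pcs1* and *mde4*, which act at kinetochores, had log2 ratios of 0.23 (signals of 1428 and 1678) and 0.14 (1071 and 1180). These 3 ratios fall within those of the condensin genes.

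The Smc5-Smc6 complex also holds non-SMC subunits, the genes *nse1* to *nse6*. *nse2*, which encodes a SUMO ligase, had the highest ratio of them, 1.34-fold, from 1201 (wt) to 1612 (*sgo2*Δ) in signal (log2 ratio 0.42, above 97.9% of all genes tested). *nse6*, the gene of a loading subunit, followed with signals of 935.1 and 1135 (0.28), close to *smc5*. The lowest was *nse4*, the gene of the kleisin of the complex, with signals of 1356 and 1397 (0.043). The log2 ratios of *nse1*, *nse3* and *nse5* were 0.14, 0.15 and 0.089, so that the 6 genes spread over 0.38 on the log2 scale around a median of 0.14. *rad60*, which encodes a protein with SUMO-like domains that acts with Smc5-Smc6, and *brc1*, which encodes a BRCT-domain protein of the same repair pathway, had log2 ratios of 0.22 and 0.050.

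Of the topoisomerase partners, the genes for the 2 proteins that act with Top3 had log2 ratios of 0.17 (*rqh1*, the RecQ helicase, with signals of 853.3 and 958.2) and 0.10 (*rmi1*, 298.6 and 320.3). *tdp1*, which encodes an enzyme that removes trapped Top1 from DNA, had a log2 ratio of 0.21. *rec12*, the meiotic relative of a topoisomerase subunit that makes the breaks for recombination, was dim, at 157.5 (wt) and 207.3 (*sgo2*Δ). Its log2 ratio of 0.40 lay within the range of -0.40 to 0.83 of the 200 genes nearest in signal, whereas those of *nse2* and *psm3* lay above their ranges (upper ends 0.36 and 0.42).

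**Figure D3:**
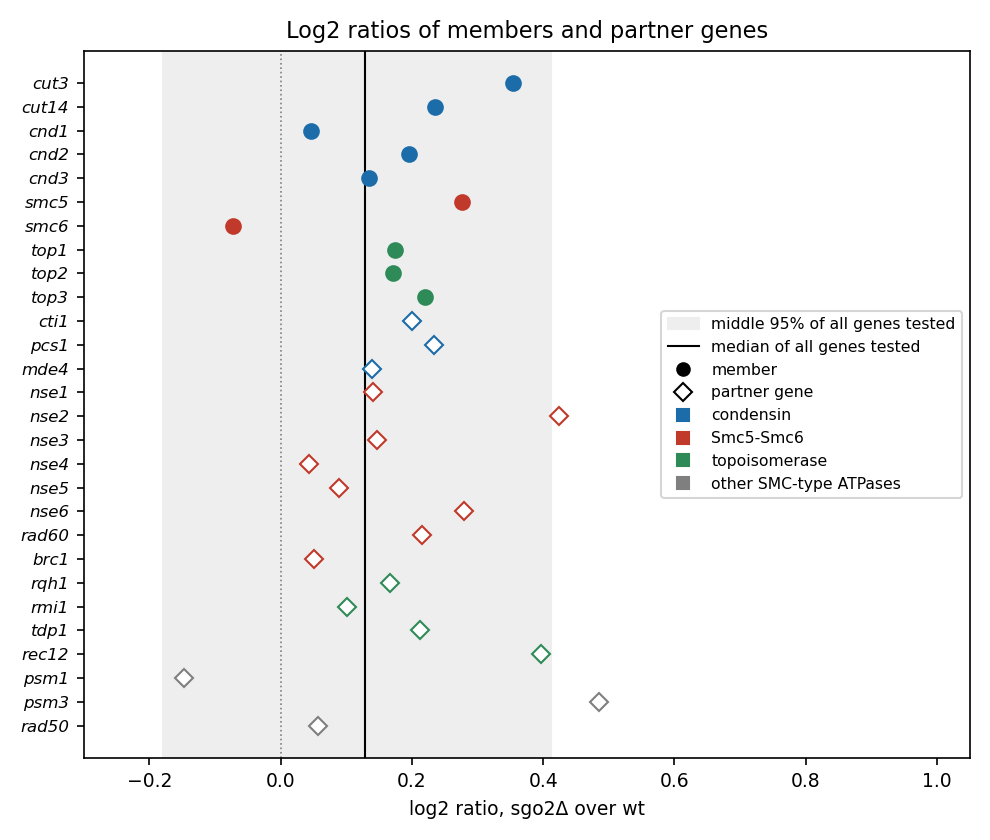
Log2 ratio of *sgo2*Δ over wt (horizontal axis) for the 10 members (filled circles) and the 18 partner genes (open diamonds), 1 array per strain. The black line is the median of all genes tested (0.13) and the grey band their middle 95% (-0.18 to 0.41). All 10 members and 16 of the 18 partner genes lie within the band, and *nse2* and *psm3* lie to its right.

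Most genes tested had a slightly higher signal in *sgo2*Δ cells, and the same held for most probe sets of control RNAs that are added to the sample. Over 27 hybridization control probe sets the median log2 ratio was 0.11, and they ranged from -0.13 to 0.45. Over 36 poly(A) control probe sets, whose wt signals went down to 22.7, it was 0.48, with a range from -0.16 to 0.92. As no source used here says when or in what amount these controls were added, values set by them show only how the members stood relative to these probe sets. Over 6 probe sets of ribosomal RNA (18S and 28S) the median was 0.54. Their part in the ratios of the members was not tested. After centring on the median of all genes tested, 8 members were above 0 and the log2 ratios of *cut3*, *smc5*, *cnd1* and *smc6* became 0.23, 0.15, -0.082 and -0.20. With the poly(A) controls as the reference, all 10 members lay below 0, from -0.55 (*smc6*) to -0.12 (*cut3*), as did the median of all genes tested (-0.35). With quantile normalization, *cut3* had a log2 ratio of 0.19, *smc5* 0.13 and *smc6* -0.25, while *top3* turned to -0.11. *cut3* was the highest and *smc6* the lowest of the 10 members under each of these scalings, whereas the sign of *cut3* was not the same in all of them. Centring moves every gene alike, so of these scalings only quantile normalization could have changed that order.

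**Figure D4:**
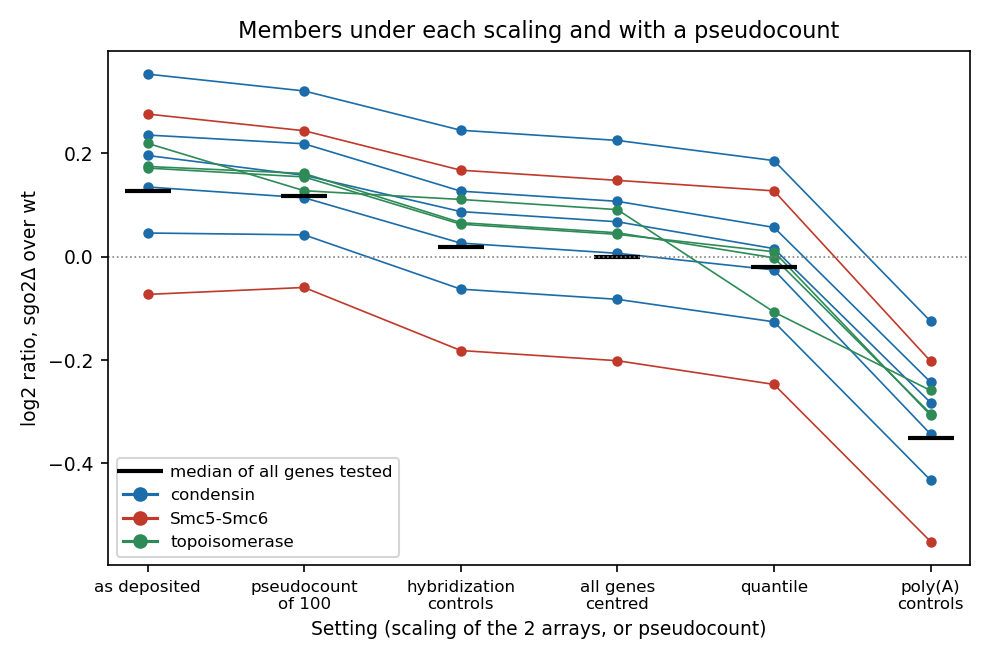
Log2 ratio (*sgo2*Δ over wt) of each member (coloured by class, lines join the values of 1 gene) under 5 scalings of the 2 arrays and with a pseudocount of 100, with black bars for the median of all genes tested. That median goes from 0.13 as deposited to -0.35 with the poly(A) controls, *cut3* and *smc6* stay at the 2 ends, and *top3* drops further than the other members with quantile normalization (to -0.11). Centring moves every gene alike, so only quantile normalization and the pseudocount could change the order of the members.

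The positions of the genes were taken from the RefSeq gene table of assembly ASM294v3. As the sources name no build for the array, only chromosomes and gene order were used. *smc5* lies on chromosome 1, *cut3*, *cut14*, *cnd1*, *top1*, *top2* and *top3* on chromosome 2, and *cnd2*, *cnd3* and *smc6* on chromosome 3. None is close to the end of a chromosome sequence, the nearest being *top3*, beyond which 301 annotated genes lie on the shorter side. Whether the ratio of a member is shared by its surroundings was examined through its measured neighbours. These are the nearest genes on each side among the genes tested. *cut3* has *med15* and *cwf25* as such neighbours, whose log2 ratios were 0.085 (signals of 708.5 and 751.7) and 0.078 (1284 and 1356). *smc6* lies between *cut1* (0.23, 788.5 and 923.0) and *rpl2802* (0.12, 9168 and 9970). Between a member and its measured neighbour lay 0 to 8 other annotated genes, 5 and 3 for *cut3* and 8 and 1 for *smc6*. Some of these genes may have had a signal too, since probe sets not assigned to exactly 1 gene could not give a neighbour. The widest gap in log2 ratio, picked after the values were seen, was that of *cnd1* to *hsk1*, with 3 other genes between them. The log2 ratio of *hsk1* was 0.57 (signals of 920.6 and 1367), a difference of -0.52. Over the 20 neighbours of the 10 members the median log2 ratio was 0.11. Of these neighbours, 7 lay above the median of all genes tested, as 50% of all genes tested do by construction. Of the 20, 2 were at least 25% higher and 0 were at least 20% lower, beside 6.51% and 0.572% of all genes tested.

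**Figure D5:**
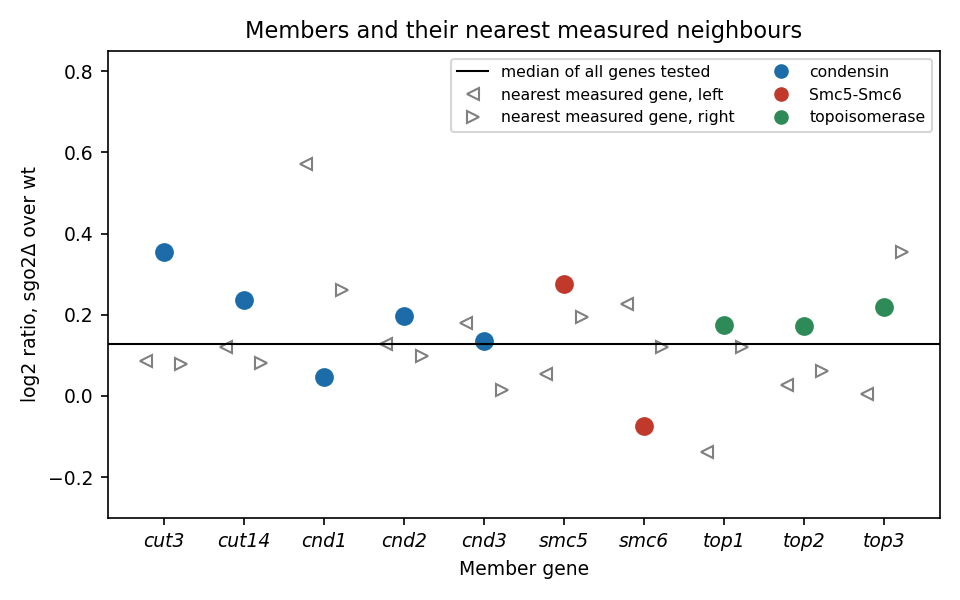
Log2 ratio of *sgo2*Δ over wt for each member (filled circles, coloured by class) and its measured neighbours (open triangles). These are the nearest genes tested to its left and right in gene order. The black line is the median of all genes tested. The neighbours spread from -0.14 to 0.57, and the highest of them is *hsk1*, to the left of *cnd1*.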

How the data were processed

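Per the paper's methods, the authors hybridized biotin-labelled cRNA to GeneChip Yeast Genome 2.0 arrays and scanned, scaled and masked (*S. cerevisiae* probe sets) with GCOS 1.4 at default settings. The deposited table holds linear signal intensities, and 5748 of its 10928 probe sets stand at 0 in both columns. Scaling factor and target: not given in the sources used here.

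The platform annotation was updated by gene identifier, or for 3 probe sets by symbol, to the RefSeq table of ASM294v3. The 2917 probe sets naming 1 gene covered 2899 genes, and several probe sets of 1 gene were averaged as log2 signals. Ratios are log2 of *sgo2*Δ over wt, with no pseudocount. A gene was tested where its brighter signal reached 100. Percentiles are over the 2796 genes tested. With 1 array per strain no test was possible.

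Members and lists were chosen with earlier results of these data known. Named were all members, all 18 partner genes, *sgo2*, and the neighbours of the highest and lowest member. The neighbour *hsk1* of *cnd1* was added after the values were seen. Alternatives covered scaling, signal floor, pseudocount, probe set choice, fold threshold and matching by identifier. The calling step was tested on simulated data at the 2-fold threshold only, and not at the smaller one. The software was Python 3.11.15, pandas 2.3.3, numpy 2.4.6 and matplotlib 3.10.9.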

Additional observations from a re-analysis of the deposited data

How the results depend on the processing

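No paired analysis was possible because there is only 1 array for a strain, which also leaves no replicate to omit. In no setting run did a member or partner gene pass the 2-fold threshold in either direction. A threshold of 1.5-fold was applied only to the signals as deposited, where none passed it either. It was not applied to the other settings, and with the poly(A) controls the partner gene *psm1* had a log2 ratio of -0.63. The count of members at least 25% higher fell from 1 to 0 after centring on all genes or on the hybridization or poly(A) controls, with quantile normalization and with a pseudocount of 100. That of partner genes fell from 3 to 1 with the first 2 centrings and with quantile normalization. It fell to 0 with the poly(A) controls and to 2 with a pseudocount of 100. The share of all genes tested at least 25% higher fell too, from 6.51% to 1.82% (centred on all genes) and 1.97% (hybridization controls). It was 0.644% with the poly(A) controls, 1.11% with quantile normalization and 3.47% with a pseudocount of 100. At least 20% lower were 3 members and 9 partner genes with the poly(A) controls, and 1 partner gene with quantile normalization, beside 58.4% and 4.22% of all genes tested. The median log2 ratio of the members was 0.057 after centring on all genes, 0.0039 with quantile normalization and -0.29 with the poly(A) controls. In the same order it was 0.068, 0.016 and -0.28 for condensin, 0.047, -0.0019 and -0.30 for the topoisomerases and 0.029, -0.0089 and -0.32 for the partner genes. For Smc5-Smc6 it was -0.027 after centring on all genes, -0.0068 on the hybridization controls, -0.060 with quantile normalization and -0.38 with the poly(A) controls. Log2 ratios that passed the 25% threshold and changed sign with the poly(A) controls were those of *cut3* (-0.12), *nse2* (-0.054) and *rec12* (-0.082). These centrings subtract 1 constant, which moves every gene alike. Why the controls differed was not tested. The differences within the 3 pairs of SMC genes, added after seeing the data, ran from 0.30 to 0.37 for *smc5* minus *smc6*, 0.10 to 0.13 for *cut3* minus *cut14* and 0.54 to 0.66 for *psm3* minus *psm1*. A floor of 200 leaves out *top3*, so signal over background limits that gene most.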
